A study of Mus musculus with 12 samples.

Results

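Mouse embryonic stem (ES) cells that carry a tamoxifen-inducible Cre were followed from day 1.5 to day 3 of tamoxifen, the interval in which RNA of Thap11, the gene of the zinc finger protein Ronin, was being lost. The members were the 4 arrays titled as knockout cells of these days, 2 per day, out of 12 arrays in all, and the readout covered 18194 genes. Knockout cells had the genotype CreERT2; Roninflox/flox, and control cells were Roninflox/flox without Cre, so the controls carried the same floxed alleles. All cells of both lines received 0.25 µM tamoxifen throughout (CreERT2 is a recombinase that enters the nucleus when tamoxifen binds it). Cells were plated at 100000 per 10 cm2 and split on day 4, so day 1.5 and day 3 belong to the first plating and day 6 to the second. Control cells of the same days (4 arrays) gave the time step without deletion, and knockout and control cells of day 6 (4 arrays) gave the later state. The labels name neither the promoter that drives CreERT2, nor the number of clones, nor the source of the replicates, so the spread within a pair of arrays may be technical and p-values measure only that spread. Every array was hybridised with RNA of a whole culture, in which fewer cells of a type and less RNA per cell cannot be told apart.

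Ronin is a DNA-binding protein with a THAP-type zinc finger that ES cells need for self-renewal. It works with the cofactor HCF-1 and sits mainly at promoters, where it reads a motif with the parts ACTACA and TCCCAG, a motif also bound by the zinc finger protein ZNF143. Genes known as its targets include many with roles in mitochondria, protein synthesis and cobalamin (vitamin B12) use, among them Mmachc, which encodes the protein that processes cobalamin inside the cell.

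The day 3 arrays of both lines stood apart from the others in technical signals. The probe set for the 5′ part of 18S ribosomal RNA read 1585 and 4209 in knockout cells and 2098 and 4737 in control cells on day 3, and between 283 and 577 on the other 8 arrays. The log2 ratio of 3′ over 5′ Gapdh signal was 0.228 to 0.298 on day 3 and 0.144 to 0.203 on the other days. These signals moved with the day in both lines, and their part in the results was not tested. The difference between the lines' time steps, given beside the results, sets knockout arrays against control arrays of the same days. Replicate arrays correlated at 0.998 to 0.999. The summed intensity of 7 ES cell markers was 70510 to 70610 on day 1.5 and 68800 to 69800 on day 3 in knockout cells, and the summed intensities of 7 fibroblast or feeder markers were 274 to 297 and 299 to 330. None of these 7 passed the test. In a longer list of 22 fibroblast or feeder genes 2 rose and 2 fell in knockout cells, and 1 rose and 4 fell in controls. Over all genes 6.97% rose and 13.7% fell in knockout cells, and 9.12% and 18.2% in controls. The step was more positive in knockout cells for 4 of the 22. With median centring 4 of the 22 rose and 0 fell in knockout cells.

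Thap11 RNA was already low in knockout cells on day 1.5 and fell further by day 3. Its intensity (the authors' RMA value on a linear scale) was 327 and 354 on day 1.5, 110.2 and 92.7 on day 3, and 50.6 and 51.5 on day 6. Control cells read 1262 and 1181, 1279 and 1290, and 1305 and 1382 on the same days. The knockout arrays were below every control array on each day, and the days did not overlap. Between day 1.5 and day 3 the log2 intensity changed by -1.75 ± 0.08 (SE, n = 2 arrays a day, limma adjusted p = 1.1e-05) in knockout cells, and the difference between these days in control cells was 0.07 (adjusted p = 0.58). The position of the probe set relative to the floxed part is not given in the sources used here. Hcfc1, the gene of HCF-1, had a log2 difference of 0.08 between the days in knockout cells (limma adjusted p = 0.50). Over all genes 13.7% fell and 6.97% rose in knockout cells. Of the 17 measured genes of Ronin, HCF-1, their partners and other THAP proteins 2 fell and 0 rose. The second one that fell was Hcfc1r1, which encodes a regulator of HCF-1 localisation, with intensities of 1496 and 1499 on day 1.5 and 1003 and 970 on day 3 (log2 change -0.60 ± 0.06).

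Between day 1.5 and day 3, 3757 of 18194 genes (20.6%) changed in knockout cells at an adjusted p under 0.05 in limma. Of these, 1269 rose (6.97%) and 2488 fell (13.7%), so 33.8% of the calls were rises. This split depended on scaling. With each array centred on the median of its 18194 tested genes (median centring), 3054 genes rose and 1440 fell (68.0% rises). With quantile normalization of the tested genes 1640 rose and 1677 fell (49.4% rises). Median centring moved the median change of all genes from -0.01 to 0.09. In knockout cells the log2 median of the tested genes was 6.831 and 6.842 on day 1.5 and 6.745 and 6.735 on day 3. The median intensity of all 45101 probe sets moved the other way, from 42.77 and 42.37 to 44.72 and 44.7. Most changes were small: the median size among the called genes was 0.35 on the log2 scale. Only 61 genes (0.335%) fell and 11 (0.0605%) rose at least 2-fold. The 3757 calls became 1998 without the first and 2046 without the second knockout array of day 1.5, and 2037 and 2387 without those of day 3. With the second day 3 array of both lines left out, the pair with the highest 18S signal, the count was 2620, an alternative chosen after the data were seen.

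Control cells also changed over the same interval. In these, 4966 genes (27.3%) passed the threshold, 1659 higher (9.12%) and 3307 lower (18.2%). With median centring 2040 were higher and 2798 lower, and with quantile normalization 2312 and 2447. The time step itself differed between the lines for 2723 genes (15%), more positive in knockout cells for 1387 (7.62%) and more negative for 1336 (7.34%), which became 2123 and 1029 with median centring and 1379 and 1368 with quantile normalization. Without the first control array of day 1.5 the controls' count was 3156, and the count of differences was 1810. That second count was 1724 without the first knockout array of day 1.5 and 1745 without the first of day 3. The lines' steps share no array, but they share each gene's estimate of the spread, so their calls are not independent. Of the 2488 genes that fell in knockout cells, 1078 also fell in controls (43.3% of the knockout list, 32.6% of the control list), 184 rose and 1226 were not called. Of the 1269 that rose, 308 also rose in controls (24.3% and 18.6% of the lists), 166 fell and 795 were not called.

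**Figure D1:**
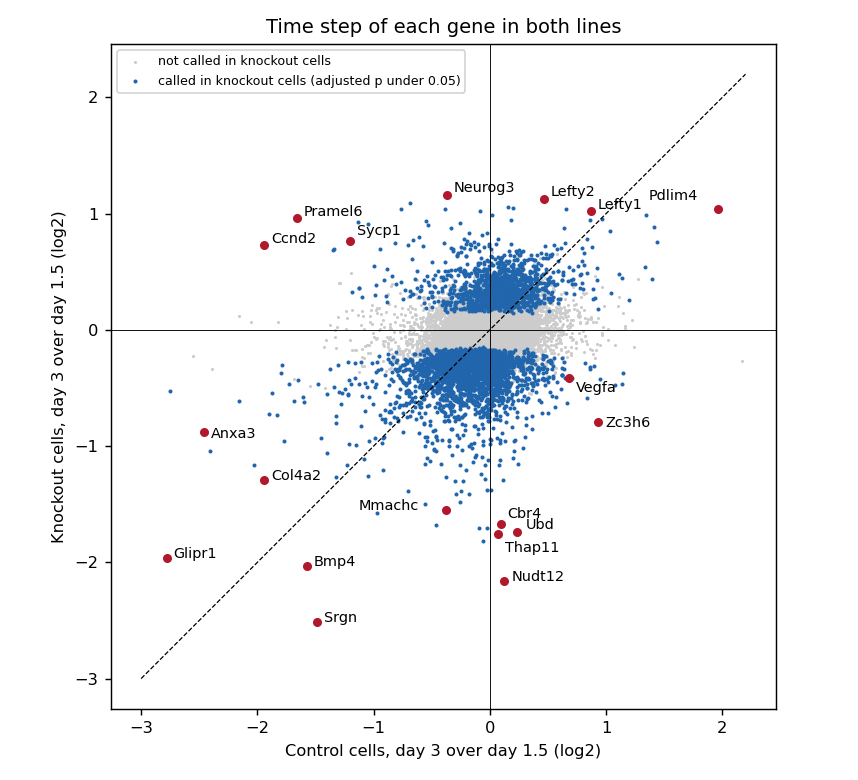
Log2 change of each of 18194 genes from day 1.5 to day 3, in control cells (x axis) and knockout cells (y axis), each over 2 arrays a day. Blue points passed the threshold in knockout cells, red points are named genes, and the dashed line marks equal steps; Thap11, Nudt12 and Cbr4 lie low on the y axis near 0 on the x axis, whereas Srgn, Bmp4 and Glipr1 fell in both lines and Ccnd2 and Pramel6 moved in opposite directions.

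The steepest falls differed in what control cells did. Of the 61 genes that fell at least 2-fold, 32 were not called in controls, 28 also fell there and 1 rose. The difference between the lines' steps was past the threshold and more negative in knockout cells for 47 of the 61, more positive for 3 and not called for 11. Over all genes these differences were more negative for 7.34% and more positive for 7.62%. The 61 were chosen by the knockout step that enters the difference, so the choice itself favours negative differences. All 61 had day 3 arrays below both day 1.5 arrays, but so did every one of the 3757 called genes in its own direction, and 11521 of the 18194 genes had pairs that did not overlap.

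Several of the steeply falling genes carry the Ronin motif upstream of their start. The promoter windows (250 bases before to 50 after the RefSeq start, GRCm38.p6) of 14453 tested genes were searched on both strands for ACTACA, any 2 bases, and TCCCAG. Shown here are 30-base stretches from 7 genes that fell at least 2-fold and whose values follow, to let the motif be seen in place; capitals mark the motif's fixed letters where they match. The genes other than Cbr4 and Mmachc were chosen after their values were seen.
Cbr4 (chr8:61487656-61487685, plus strand): gagtaaggACTACAagTCCCAGaatgcaat
Ube2d1 (chr10:71285302-71285331, minus strand): agcctgggACTACActTCCCAGtgtgccag
Rbbp9 (chr2:144550860-144550889, minus strand): atccaagaACTACAatTCCCAGaagtccgc
Bckdk (chr7:127904021-127904050, plus strand): gtggtcaaACTACAacTCCCAGgaggcact
Poglut2 (chr1:44118930-44118959, minus strand): tatggcggACTACAtaTCCCAGgaagctaa
Mmachc (chr4:116708390-116708419, plus strand): agggctggACTACAttTCCCAagaagtaaa
Clpb (chr7:101663624-101663653, minus strand): ctaaacaaACTACAttTCCCcGagggctgt
The first 5 hold every fixed letter. The Mmachc window has 1 substitution, G14A, and the Clpb window has A13C, where positions count from 1 at the motif's first base, the motif's letter stands first and the window's letter last. In Cbr4 the motif starts at -70 from the gene's start, in Ube2d1 at -61, in Rbbp9 at -22, in Bckdk at -44 and in Poglut2 at -178. The stretches of Mmachc (from -26) and Clpb (from -119) run on the strand opposite to the gene. The motif lies upstream of the annotated start in all 7.

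Cbr4, which encodes a reductase of mitochondrial fatty acid synthesis, read 571 and 586 on day 1.5 and 189.6 and 174 on day 3 in knockout cells, against 447, 439, 486 and 459 in controls. On day 1.5 it was thus above the controls, and by day 3 below them. Its log2 change was -1.67 ± 0.07 (adjusted p = 6.2e-06), the value in controls was 0.09 (not called), and the difference was -1.76. Mmachc read 393 and 424 on day 1.5, 133 and 147 on day 3 and 51.1 and 44.1 on day 6. Controls read 599 and 587, 455 and 458, and 605 and 598. The knockout step of Mmachc was -1.55 ± 0.08 and the controls' -0.38, both past the threshold, with a difference of -1.17 (adjusted p = 0.00035), so the dip in controls was the smaller one.

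Ube2d1, a ubiquitin-conjugating enzyme, read 199 and 198 on day 1.5 and 73.2 and 75.9 on day 3 in knockout cells, and 354, 379, 289 and 312 in controls. It was below the controls on both days, and the gap widened (difference of the steps -1.12), although controls fell too (-0.29, adjusted p = 0.039). Rbbp9, a serine hydrolase that binds the retinoblastoma protein, read 424 and 411, then 156 and 163, where controls read 426 and 475, then 370 and 391 (-0.24, adjusted p = 0.049). Bckdk, the kinase that restrains breakdown of branched-chain amino acids, went from 618 and 668 to 312 and 276. Poglut2, a glucosyltransferase of the endoplasmic reticulum, went from 759.6 and 763 to 358 and 355 with the smallest standard error of this group (-1.09 ± 0.05). Clpb, a mitochondrial disaggregase, went from 647 and 618 to 289 and 276. In controls the log2 changes of Bckdk, Poglut2 and Clpb were -0.14, -0.13 and -0.04, none past the threshold.

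**Figure D2:**
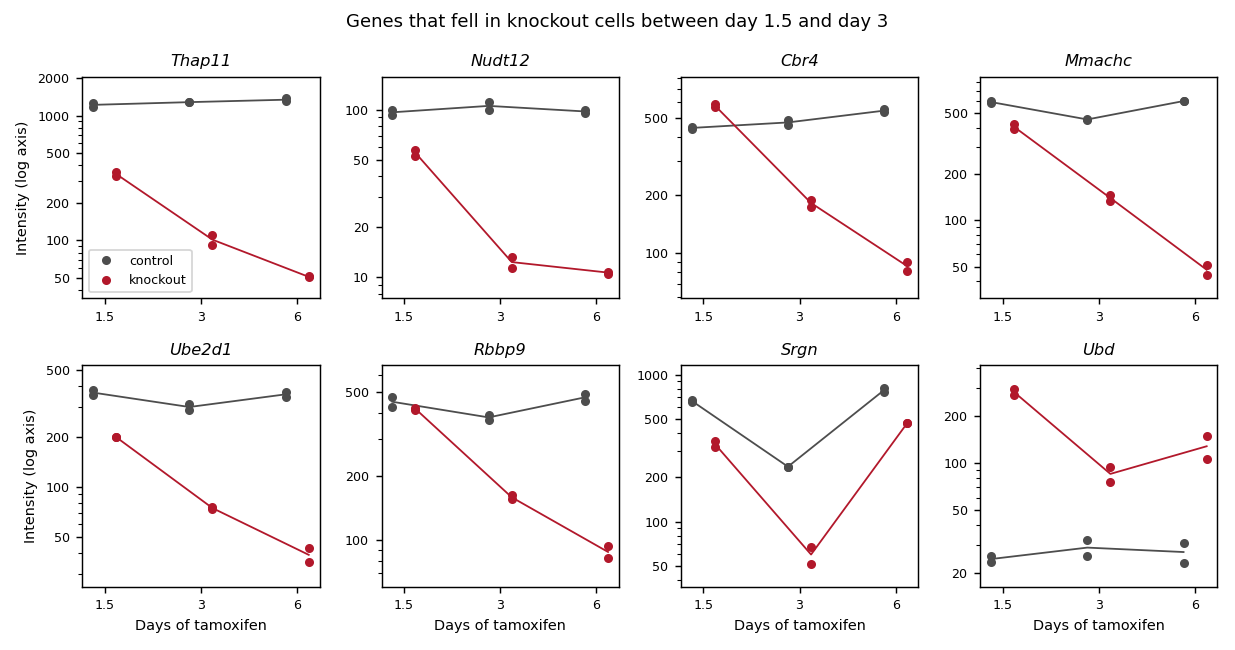
Intensity (log axis) of 8 genes by days of tamoxifen, with each of the 2 arrays per group as a point and lines through the group means, controls in grey and knockout cells in red. Days are evenly spaced; Thap11, Nudt12, Cbr4, Mmachc, Ube2d1 and Rbbp9 fell from day 1.5 to day 3 and were lower still on day 6, Srgn dipped on day 3 in both lines, and Ubd stayed above the controls.

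Across all genes with a window, 284 of 14453 (1.96%) held the full motif. It was in 5.58% of the windows of genes that fell in knockout cells (113 of 2024), in 27.1% of those that fell at least 2-fold (13 of 48), in 1.67% of those that rose and in 1.35% of those not called. Among genes not called it was 2.00% in the brightest 60% of the table. In the controls' own step it was 2.77% of genes that fell and 1.42% of those that rose. Genes that fell in knockout cells and were not lower in controls held it in 6.99%, and genes that fell in both lines in 3.75%. With up to 1 mismatch allowed, the shares were 4.09% of all windows, 9.93% of genes that fell and 47.9% of those that fell at least 2-fold (23 of 48). These shares are a description, and a match is not a bound site.

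Read from the motif, most of the 284 genes were not called against controls on day 1.5, and more of them were lower later. On day 1.5, 7.39% of them were lower in knockout than in control cells, against 3.96% of the 14169 genes without it, but more of the 284 were higher (27) than lower (21). Over the knockout time step 113 of the 284 (39.8%) fell and 17 rose, with a median change of -0.13, against 13.5% fallen and a median of -0.01 without the motif. In controls 26.1% fell with the motif and 18.4% without. The step was more negative in knockout cells for 70 of the 284 (24.6%, against 7.15% without the motif) and more positive for 31. On day 3, 99 of them (34.9%) were lower in knockout than in control cells and 53 higher, against 9.75% lower without the motif. On day 6, 49.6% of the motif genes were lower in knockout than in control cells, against 14.8% of the others, and 54 of the 284 were higher.

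**Figure D3:**
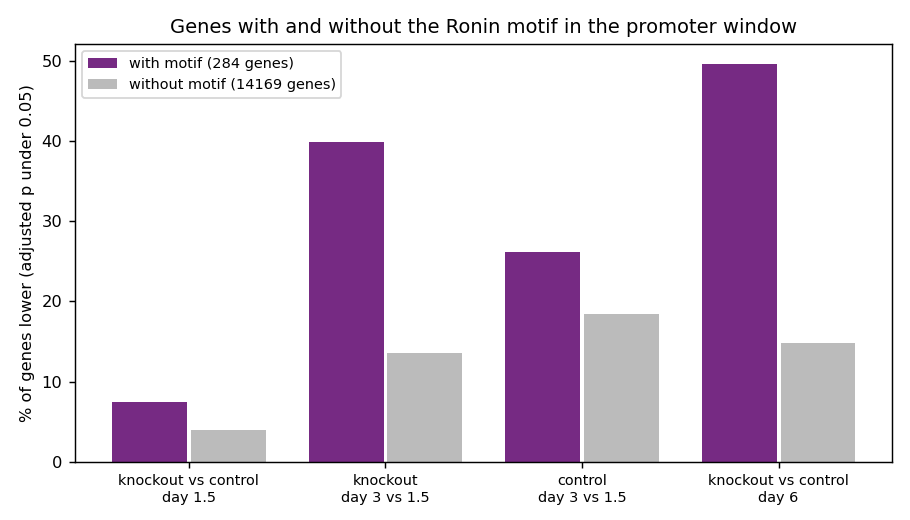
Percentage of genes called lower (adjusted p under 0.05, y axis) in 4 comparisons, for 284 genes with the full motif in the promoter window (purple) and 14169 without it (grey). For knockout against control cells the bars for motif genes stand at 7.39% on day 1.5 and 49.6% on day 6. For the time steps, a different kind of comparison, they stand at 39.8% in knockout and 26.1% in control cells. Genes called higher are not drawn.

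Nudt12, Galm, Cubn, Zfp418 and Asb13 fell by amounts near that of Thap11, and of these only Zfp418 was also called lower in controls. Nudt12, a hydrolase of NADH in peroxisomes, read 57.5 and 52.8 on day 1.5 and 13.3 and 11.4 on day 3, a log2 change of -2.16 ± 0.09 (adjusted p = 6.2e-06), against 93.4, 99.4, 99.4 and 111 in controls. Day 3 of Nudt12 lay close to its day 6 values of 10.8 and 10.5. All 4 values are near the low end of the arrays' range (lowest 5.511), where a further fall may not show. Galm (galactose mutarotase) went from 307 and 329 to 95.7 and 99.2, with controls between 352 and 394. Cubn, the gene of the cobalamin receptor cubilin, went from 105 and 105 to 32.0 and 27.7. It was back at 102 and 88.3 on day 6, when controls had reached 229 and 231. Zfp418, a zinc finger gene, changed by -1.68 ± 0.14 in knockout cells and by -0.47 in controls (adjusted p = 0.035, difference -1.21). Asb13, a substrate adaptor of ubiquitin ligases, changed by -1.71 ± 0.13, and its promoter window holds the full motif, from -47. The probe sets of Galm, Cubn, Asb13 and Cox7c can also detect related transcripts. Cox7c, a subunit of cytochrome c oxidase, changed by -1.58 in knockout and -0.97 in control cells, and the difference missed the threshold (adjusted p = 0.053). The promoter window of Cox7c holds the motif with 1 substitution, G14C, from -121.

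Ubd and Dusp4 fell from other starting points. Ubd, a ubiquitin-like modifier, stood at 270.4 and 294 in knockout cells on day 1.5, when controls read 25.6 and 23.3, and fell to 94.6 and 75.7 by day 3 (log2 change -1.74 ± 0.20). It remained above every control array on day 3 and on day 6. Dusp4, a phosphatase that inactivates ERK, matched the controls on day 1.5 (366 and 359 against 366 and 319) and fell to 173 and 187, while controls rose to 409.9 and 426. The step differed by -1.30 (adjusted p = 0.00021). Dusp4 is the 1 gene of the 61 that rose in controls.

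Another group of steep falls was common to both lines. Srgn, which encodes the proteoglycan serglycin, had the largest fall of all, from 322 and 353 to 67.5 and 51.7 (-2.51 ± 0.11, adjusted p = 6.2e-06). Controls fell from 673 and 652 to 236 and 236, and on day 6 both lines read higher again, at 466 and 471 in knockout and 766 and 805 in control cells. Bmp4, a ligand that supports self-renewal with LIF, fell from 915 and 945 to 229 and 226 in knockout cells and from 1368 and 1302 to 468 and 429 in controls. The steps of Srgn and Bmp4 were larger in knockout cells, with differences of -1.02 and -0.46 (adjusted p = 0.0027 and 0.011). Glipr1 fell from 131 and 122 to 39.3 and 26.8 in knockout cells and from 309 and 286 to 38.9 and 48.1 in controls, a difference that missed the threshold (adjusted p = 0.060). Dok2, an adaptor of tyrosine kinase signalling, changed by -1.27 and -1.33.

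Genes of extraembryonic endoderm and its basement membrane fell more often than they rose in both lines, with a smaller median fall in knockout cells. Of 22 measured, 11 fell and 2 rose in knockout cells (median -0.34), and 16 fell and 0 rose in controls (median -0.71). Over all genes 13.7% fell and 6.97% rose in knockout cells, and 18.2% and 9.12% in controls. In knockout cells Sox7 and Sparc were the 2 that rose, and the lineage factors Gata4, Gata6, Sox17, Foxa2 and Hnf4a were not called. The step was more positive in knockout cells for 12 and more negative for 3. Col4a2, a collagen of the basement membrane, fell from 275 and 325 to 121 and 123 in knockout cells and from 503 and 448 to 126 and 122 in controls, so the lines met on day 3. Dab2, an endocytic adaptor, went the other way, with a steeper fall in knockout cells (-1.39 ± 0.10 against -0.70, difference -0.68). Leaving out 1 array left 9 to 11 members fallen. The summed intensity of the 6 defining markers fell from 405 to 438 on day 1.5 to 322 to 328 on day 3 in knockout cells, and from 607 to 623 to 329 to 356 in controls. Of these 6, 2 fell and 1 rose in knockout cells, and Dab2 alone went from 127 and 144 to 57.6 and 46.5.

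Keratins, annexins and related genes of epithelial cells followed the same course. Of 15 measured, 9 fell and 2 rose in knockout cells (median -0.47) and 11 fell in controls (median -0.82). Over all genes 13.7% fell and 6.97% rose in knockout cells, and 18.2% and 9.12% in controls. The step was more positive in knockout cells for 9 of the 15 and more negative for 1. Anxa3, a calcium-dependent membrane binder, read 191 and 186 and then 104 and 101 in knockout cells, and 319 and 281 and then 57.3 and 51.9 in controls. Knockout cells thus began below and ended above the controls. S100a6, a calcium-binding protein, fell in both lines (-0.93 and -0.99), as did Anxa5 (-0.67 and -0.82), with differences that were not called, and Lgals1, the gene of galectin-1, fell more in knockout cells (-0.65 and -0.25).

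Among 22 targets of SRF and YAP, the factors that answer to actin and cell contact, 7 fell in knockout cells and 14 in controls, and 0 rose in either. The shares over all genes were 13.7% fallen and 6.97% risen in knockout cells, and 18.2% and 9.12% in controls. Their median change of -0.11 in knockout cells became -0.02 with median centring, where 3 rose and 4 fell. Ccn2 fell from 2080 and 2042 to 1265 and 1227 in knockout cells, and from 2759.6 and 2680 to 686 and 774 in controls. Ccn1, whose probe set can detect related transcripts, changed by -0.61 in knockout and -2.16 in control cells. In both genes the step was more positive in knockout cells, by 1.17 and 1.54. Myh9, the heavy chain of nonmuscle myosin, differed: it fell from 3695 and 3744 to 2740 and 2781 in knockout cells and had a difference of 0.04 in controls (not called), but with all its probe sets averaged its knockout change was -0.17 and was not called.

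Of the 11 rises of at least 2-fold, 4 belonged to genes of the primed epiblast, the stage after naive pluripotency. Of 15 such genes, 10 rose and 0 fell in knockout cells (median 0.52), whereas 3 rose and 7 fell in controls (median -0.14), and 10 differed between the lines, all more positive in knockout cells. With 1 array left out, 8 or 9 rose. The percentages over all genes were 6.97% risen in knockout and 9.12% in control cells.

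Lefty2, a secreted inhibitor of Nodal, rose from 426 and 439 to 929 and 962 (1.13 ± 0.06, adjusted p = 1.6e-05). Controls rose from 676 and 652 to 875 and 962, so knockout cells began lower and arrived at the same level; the difference of the steps was 0.66. On day 6 Lefty2 was at 255 and 268 in knockout cells against 728 and 722. Lefty1, its neighbour in function, rose in both lines (1.02 ± 0.07 and 0.87, difference 0.15 ± 0.10, adjusted p = 0.35). Fgf5, a marker of the primed state, read 13.3 and 13.1 on day 1.5 and 29.8 and 24.1 on day 3, against 21.1 to 24.2 on the control arrays of these days. Fgf5 thus went from below all of these control arrays to within their range on 1 array and above it on the other. All of these Fgf5 values lie near the low end of the arrays' range (lowest 5.511). Zic2, a transcription factor, rose by 1.04 ± 0.21, with 91.4 and 74.6 on day 1.5 and 159 and 181 on day 3, and lost its call without the second knockout array of day 1.5 (0.89) or of day 3 (0.94). Zic2 rose in controls too (0.66, adjusted p = 0.046), and the difference of 0.38 was not called (adjusted p = 0.45). Dnmt3b, a DNA methyltransferase and the brightest of the list outside the called genes, had a difference of 0.04 and was not called.

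Naive pluripotency genes moved in both directions. Of 24 measured, 4 rose and 5 fell in knockout cells and 3 rose and 7 fell in controls. Over all genes 6.97% rose and 13.7% fell in knockout cells, and 9.12% and 18.2% in controls. The step was more positive in knockout cells for 5 of the 24 and more negative for 2. With median centring 8 rose and 4 fell in knockout cells, and 1 to 4 fell with 1 array left out. Pou5f1 and Sox2, which encode core factors of the ES cell state, were not called, at 0.05 (adjusted p = 0.47) and -0.14 (adjusted p = 0.26). With median centring Pou5f1 was called higher, at 0.15. Nanog rose from 5279 and 5406 to 6749 and 6679 (0.33 ± 0.05, adjusted p = 0.0029), and rose by 0.29 in controls. Tcl1, a cofactor of AKT, also rose in both (0.47 and 0.39). Prdm14 rose in knockout cells from 367 and 360.4 to 525 and 542, towards control arrays that read 563 to 658 on these days. Nr5a2 changed by 0.36, and by -0.63 in controls, and Gbx2 changed by -0.58 against -1.61 in controls. The other genes of the list that fell were Esrrb (-0.32), Utf1 (-0.31), Nr0b1 (-0.24) and Tfcp2l1 (-0.16), named after their values were seen.

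**Figure D4:**
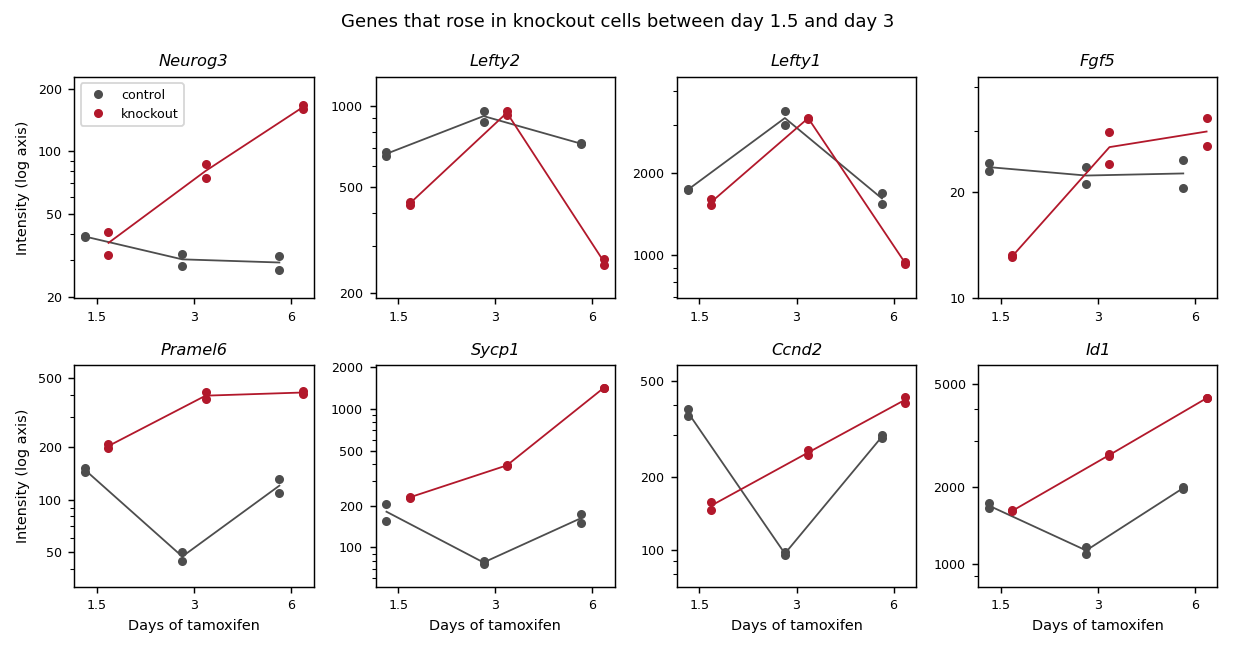
Intensity (log axis) of 8 genes by days of tamoxifen, with each of the 2 arrays per group as a point and lines through the group means, controls in grey and knockout cells in red. Days are evenly spaced; Lefty2 and Fgf5 began below the controls and reached or passed them on day 3, Lefty1 rose in both lines, Pramel6, Sycp1, Ccnd2 and Id1 rose in knockout cells while controls dipped on day 3, and Neurog3 rose through day 6.

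The largest rise was that of Neurog3, a transcription factor of endocrine and neural precursors. It read 31.8 and 40.7 on day 1.5, 74.1 and 86.8 on day 3 and 159.6 and 166 on day 6, while control arrays stayed between 26.8 and 39.3 (knockout step 1.16 ± 0.13, adjusted p = 0.00058, difference 1.52). Hhip, a membrane protein that binds Hedgehog ligands, also continued to rise after day 3, from 25.8 and 26.5 to 54.7 and 54.2 and then 88.9 and 78.3. Nhsl2 was high on day 3 alone, with 37.7 and 40.3, 81.3 and 80.1, and 42.7 and 56.2. Irak3, an inhibitor of Toll-like receptor signalling, rose from 147 and 148 to 309 and 296 in knockout cells and fell from 244 and 236 to 187 and 180.5 in controls. Ms4a10 and Coch likewise rose in knockout cells (1.09 and 1.04) and fell in controls (-0.68 and -0.77). Pdlim4, a PDZ and LIM domain protein, rose in both lines, less in knockout cells (1.04 against 1.96, difference -0.92).

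In 166 genes a rise in knockout cells met a fall in controls, and in 184 the directions were the other way round. The 166 were 13.1% of the genes that rose in knockout cells, where 18.2% of all genes fell in controls. The 184 were 7.4% of those that fell, where 9.12% of all genes rose in controls, so both shares lay below those of all genes. Ccnd2, the gene of cyclin D2, had the largest such difference, with 159 and 147 rising to 259.5 and 248 in knockout cells and 384 and 360.1 falling to 98.3 and 95.3 in controls (0.73 ± 0.06 and -1.94, difference 2.67, adjusted p = 3.9e-06). The order of the lines was reversed between the days. Pramel6, a member of the PRAME family of early embryo and germline genes, went from 199 and 209 to 417 and 379, while controls went from 152 and 144 to 44.1 and 49.8 (difference 2.62). Its relative Pramel7 behaved likewise (0.91 and -1.05); both probe sets can detect related transcripts. Nxf3, an RNA export factor gene, and Egfl6, a secreted protein gene, had differences of 2.03 and 2.04. Egfl6 lost its knockout call without any 1 of the 4 arrays, with changes between 0.53 and 0.84. In the opposite direction, Zc3h6, a zinc finger gene, fell from 19.6 and 19.2 to 11.7 and 10.8 and rose in controls from 13.0 and 11.7 to 21.9 and 25.2. The values of Zc3h6 lie near the low end of the arrays' range (lowest 5.511). Cyba, a subunit of NADPH oxidase, changed by -0.46 and 1.14.

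Germline and meiosis genes were called higher on day 3 more often than lower in knockout cells, and lower more often than higher in controls. Of 27 measured, 10 rose and 3 fell in knockout cells (median 0.22), where 6.97% and 13.7% of all genes did, and 4 rose and 11 fell in controls, and the step was more positive in knockout cells for 10 and more negative for 3. With 1 array left out, 5 to 8 rose, and 6 did without the second day 3 arrays. Sycp1, a protein of the synaptonemal complex, read 228 and 231 on day 1.5, 386 and 395 on day 3 and 1422 and 1427 on day 6. Controls read 155 and 206, 79.9 and 75.1, and 173 and 150.4. Slc25a31, the germline ADP/ATP carrier, read 69.1 and 61.5, 123 and 121, and 584 and 577, where no control array exceeded 71.4. For Sycp1 and Slc25a31 the larger part of the rise came after day 3. Stra8, a gene of meiotic entry, rose in both lines (0.69 and 0.58), and Hormad1, a protein of the meiotic chromosome axis, rose in knockout cells (0.63, against 0.07 in controls, not called; difference 0.56, adjusted p = 0.049).

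Genes of the integrated stress response, the programme run by the factor ATF4, moved apart in the lines. Of 29 measured, 14 fell and 0 rose in knockout cells (median -0.17), whereas 12 rose and 5 fell in controls (median 0.07). Over all genes 13.7% fell and 6.97% rose in knockout cells, and 18.2% fell and 9.12% rose in controls. The step was more negative in knockout cells for 10 and more positive for 1. The 14 falls became 10 with median centring, 12 with quantile normalization and 6 to 9 with 1 array left out. Pck2, the mitochondrial PEP carboxykinase, fell from 991 and 1115 to 739 and 737 and rose in controls from 1175 and 1134 to 1493 and 1315. Shmt2, the mitochondrial serine hydroxymethyltransferase, went from 2581 and 2629 to 1770 and 1706 with -0.07 in controls (not called); its probe set can detect related transcripts. Cth, the enzyme that makes cysteine from cystathionine, fell in both (-0.49 and -0.35).

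Cobalamin and one-carbon enzymes overlapped this group. Of 24 measured, 10 fell and 1 rose in knockout cells, and 9 fell and 3 rose in controls. Of all genes 13.7% fell and 6.97% rose in knockout cells, and 18.2% and 9.12% in controls. The step was more positive in knockout cells for 3 and more negative for 6, 4 to 7 fell in knockout cells without 1 array, and 5 fell and 3 rose with median centring. Besides Mmachc and Shmt2, Cbs, the enzyme that joins homocysteine to serine, fell from 335 and 343 to 249 and 237 with no change called in controls (0.01). The probe set of Cbs can detect related transcripts.

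Glycolysis genes were called higher more often than lower in controls, and hypoxia genes went both ways in controls. Of 17 glycolysis genes 8 rose and 2 fell in controls (9.12% and 18.2% of all genes), 0 rose and 3 fell in knockout cells (6.97% and 13.7% of all genes), and the step was more negative in knockout cells for 8. With median centring 3 rose and 3 fell in knockout cells. Pdk1, the kinase that shuts off pyruvate dehydrogenase, fell from 2767 and 2783 to 1924 and 2127 and rose in controls from 2126 and 2363 to 2713 and 3027. Pfkm and Pfkp, isoforms of phosphofructokinase, changed by -0.37 and -0.36; with its probe sets averaged the value of Pfkp was 0.04. Of 20 other genes of the hypoxia response 6 rose and 5 fell in controls and 1 rose and 3 fell in knockout cells (5 and 1 with median centring), with a more positive step in knockout cells for 3 and a more negative one for 6. Vegfa, the angiogenic factor, read 192 and 182 and then 143 and 138, while controls rose from 217 and 233 to 352 and 367. With its probe sets averaged, the knockout change of Vegfa was -0.20 and not called. Ddit4, an inhibitor of mTORC1, rose in both lines, less in knockout cells (0.43 against 0.92).

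Cholesterol synthesis fell in both lines and lysosome genes rose in controls. Of 20 genes of cholesterol synthesis 10 fell and 1 rose in knockout cells (median -0.25), 15 fell and 0 rose in controls (median -0.28), with a more positive step in knockout cells for 2 and a more negative one for 1. In knockout cells 5 to 8 fell without 1 array, 7 with median centring and 6 with quantile normalization. Pmvk, phosphomevalonate kinase, went from 707 and 727 to 534 and 523, and Tm7sf2, a sterol reductase, from 218 and 222 to 152 and 151, where controls of Tm7sf2 read 163 to 166 on these days. Msmo1, a sterol oxidase, changed by -0.63, and by -0.21 without a call when its probe sets were averaged. Ebp, a sterol isomerase, was the 1 that rose, from 1028 and 1091 to 1518 and 1518, while controls changed by -0.33. Of 24 lysosome and autophagy genes 15 rose and 0 fell in controls, and 4 rose and 5 fell in knockout cells, which became 8 and 3 with median centring and 6 and 4 with quantile normalization. Over all genes 9.12% rose and 18.2% fell in controls, and 6.97% rose and 13.7% fell in knockout cells. The step was more negative in knockout cells for 10 and more positive for 1. Neu1, a sialidase, read 106 and 112 and then 67.7 and 73.8, while controls rose from 81.9 and 71.2 to 129.8 and 113; with its probe sets averaged the knockout change of Neu1 was -0.10 and not called. Tfeb, a transcription factor of lysosome genes, rose by 0.51.

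Signalling feedback genes gave a mixed picture. Of 21 genes that report FGF, ERK, BMP or Wnt activity, 4 rose and 8 fell in knockout cells, and 3 rose and 11 fell in controls. Of all genes 6.97% rose and 13.7% fell in knockout cells. Between the lines, 7 steps were more positive in knockout cells and 2 more negative. The 8 falls became 5 with median centring and 5 to 7 with 1 array left out. Dusp6 and Etv4, both induced by ERK, fell in both lines (-0.66 and -0.59 for Dusp6, -0.65 and -0.54 for Etv4). Id1, an inhibitor of differentiation induced by BMP, rose from 1622 and 1604 to 2681 and 2638 in knockout cells and fell in controls from 1724 and 1653 to 1097 and 1165 (difference 1.30). Myc, a transcription factor that drives growth, fell from 681 and 692 to 477 and 498, less than in controls (-0.50 against -1.34). Of 26 p53 targets 3 rose and 3 fell, which became 8 and 3 with median centring and 7 and 3 with quantile normalization, and the step was more positive in knockout cells for 4 and more negative for 2. Cdkn1a, the gene of p21, changed by 0.27 ± 0.08 (adjusted p = 0.046), a call that ended without any 1 of the 4 arrays.

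In large sets of housekeeping genes the counts of calls in knockout cells depended on the scaling. The shares over all genes were 13.7% fallen and 6.97% risen in knockout cells, and 18.2% and 9.12% in controls. Of 76 mitochondrial ribosome genes 12 fell and 0 rose (median -0.08), against 32 and 0 in controls, and with median centring 5 fell and 3 rose. Of their steps 6 were more positive in knockout cells and 3 more negative. Of 71 genes of oxidative phosphorylation 4 rose and 5 fell, and of 42 of the cytosolic ribosome 1 rose and 1 fell. With median centring these became 13 and 3, and 5 and 0. Of 35 aminoacyl-tRNA synthetase genes 10 fell and 0 rose, which became 5 and 0 with median centring. Of 40 genes of ribosome biogenesis 2 rose and 4 fell in knockout cells and 20 fell in controls, and of 51 spliceosome genes 2 rose and 4 fell, against 2 and 26. With median centring 9 rose and 1 fell in the first and 8 rose and 3 fell in the second. For each of these 2 lists the step was more positive in knockout cells for 10 genes and more negative for 0. Of 33 mitosis genes 8 fell and 1 rose, which became 2 and 2 with median centring. With quantile normalization 6 fell and 0 rose among the mitochondrial ribosome genes, and 5 fell and 0 rose among the synthetases. Oxidative phosphorylation then had 5 rises and 4 falls, and ribosome biogenesis 4 and 2.

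**Figure D5:**
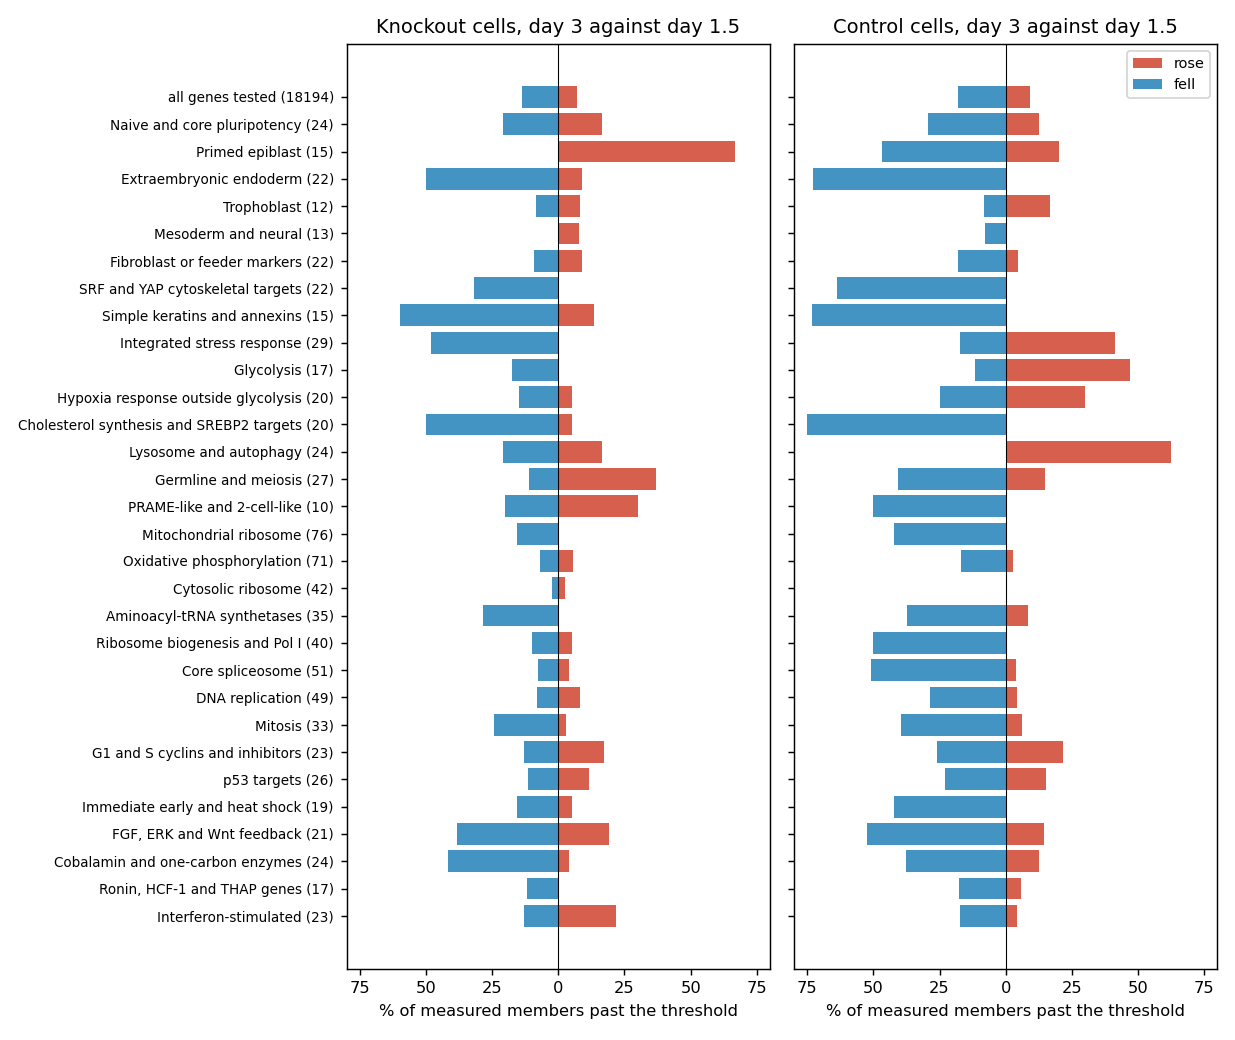
Percentage of the measured members of 30 gene lists and of all genes that rose (red, to the right) or fell (blue, to the left) from day 1.5 to day 3, in knockout cells (left panel) and control cells (right panel), with the number measured in brackets. Primed epiblast genes rose in knockout cells (10 of 15), and extraembryonic endoderm, keratin and annexin, and cholesterol genes fell more often than they rose in both lines.

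Day 6 shares no array with the knockout time step and shows where these genes stood later. On that day 5906 genes (32.5%) differed between knockout and control cells, 3129 higher (17.2%) and 2777 lower (15.3%) in knockout cells. Of the 2488 genes that had fallen by day 3, 925 were lower on day 6 (37.2% of the fallen, 33.3% of the lower), 472 higher and 1091 not called. Of the 1269 that had risen, 407 were higher (32.1% and 13.0% of the lists) and 133 lower. Of the 61 steep falls, 46 were lower in knockout than in control cells on day 6 (75.4%) and 4 higher. Some of the 46, such as Srgn, Bmp4 and Cubn, read higher in knockout cells on day 6 than on day 3. The log2 difference of knockout from control cells was then -2.66 for Cbr4, -3.66 for Mmachc and -3.19 for Nudt12. The 4 genes of the 61 that were higher on day 6 included Ubd, by 2.23, and among the 11 steep rises 7 were higher and 2 lower, the 2 being Lefty1 and Lefty2 (-0.79 and -1.47).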

How the data were processed

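RNA of 12 samples was hybridised to Affymetrix arrays of 45101 probe sets, 2 arrays in each of 6 groups. The deposited values are intensities on a linear scale. The submitters' processing notes name RMA, whose version is not given in the sources used here. They range from 5.511 to 34993, and log2 was taken here. Probe sets were named through GEO's platform annotation: 34958 had 1 gene symbol, 932 several and 9211 none, and of those with 1 symbol, 34754 matched RefSeq by gene ID. Each gene was represented by its brightest probe set on average over the 12 arrays, which gave 18194 genes. A probe set said to detect related transcripts is one whose name ends in _s_at or _x_at.

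Group means were fitted over all 12 arrays with limma 3.58.1 in R 4.3.3 (lmFit and eBayes, 6 residual and 3.04 prior degrees of freedom), and p-values were adjusted over all genes by Benjamini-Hochberg. Values after ± are standard errors. The number of arrays limits the precision. On simulated data the knockout step recovered 68% of 50 genes changed 1.5-fold and 96% of 50 changed 2-fold. It made 7 false calls among the unchanged genes. The simulated noise was normal and independent, only day 3 knockout arrays held changes, and no day effect was put in. These rates therefore need not hold for the real arrays. Same-numbered arrays of different groups deviated together in 1 of 15 pairs (correlations -0.06 to 0.17), so the numbers were not taken as pairing. Promoter windows came from RefSeq (GRCm38.p6). The members and the gene lists were chosen with earlier results of these data known. Named genes were the largest rises and falls of the knockout step (12 each way), the largest differences between the lines' steps among called genes (8 each way, or 5 each way where the lines went opposite ways), the 5 largest common changes each way, up to 4 called members and the brightest other member of each list, and Thap11, Hcfc1, Mmachc, Pou5f1, Nanog, Sox2 and Cdkn1a, with symbols that are only clone numbers left out of the rankings. Alternatives were other scalings, filters, priors, weights, probe set summaries and samples.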

Additional observations from a re-analysis of the deposited data

Results flagged for a closer look

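The change from day 1.5 to day 3 differed between knockout and control cells for 2723 genes in limma's test of the difference of the 2 steps (knockout step minus control step, adjusted p under 0.05). Of the 90 genes named in the text, 67 were among them, 29 with a more positive and 38 with a more negative step in knockout cells. Over all genes 15% differed. Many of the 90 were chosen for a large knockout step or a large difference, so their count follows in part from that choice. The largest positive differences, in log2 units, were Ccnd2 2.67, Pramel6 2.62, Egfl6 2.04, Nxf3 2.03, Sycp1 1.97, Pramel7 1.96, Coch 1.81, Ms4a10 1.77 and Anxa3 1.58. Next in size came Ccn1 1.54, Neurog3 1.52, Slc25a31 1.43, Irak3 1.42, Id1 1.30, Ccn2 1.17, Fgf5 1.11, Gbx2 1.03 and Nr5a2 0.99. Smaller positive differences were found for Oas1a 0.96, Hhip 0.90, Nhsl2 0.85, Myc 0.85, Ebp 0.85, Lefty2 0.66, Col4a2 0.65, Hormad1 0.56, Prdm14 0.44, Tfeb 0.39 and Nr0b1 0.27.

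The largest negative differences were Nudt12 -2.29, Ubd -1.97, Thap11 -1.83, Cubn -1.76, Cbr4 -1.76, Zc3h6 -1.72, Asb13 -1.68, Galm -1.61 and Cyba -1.60. They were followed by Dusp4 -1.30, Neu1 -1.29, Zfp418 -1.21, Mmachc -1.17, Rbbp9 -1.14, Ube2d1 -1.12, Clpb -1.12, Vegfa -1.09 and Ifit2 -1.04. Differences of intermediate size were found for Srgn -1.02, Bckdk -0.99, Poglut2 -0.97, Pdlim4 -0.92, Pdk1 -0.81, Pck2 -0.79, Bst2 -0.73, Dab2 -0.68 and Gabarapl1 -0.67. Smaller negative differences were found for Tm7sf2 -0.54, Pfkp -0.53, Shmt2 -0.52, Cbs -0.49, Ddit4 -0.49, Myh9 -0.47, Bmp4 -0.46, Hcfc1r1 -0.42, Pfkm -0.42, Lgals1 -0.40 and Esrrb -0.33. No group had enough arrays for a search for single outlying samples, and no file or array outside the comparisons was left to examine.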

How the results depend on the processing

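The number of genes called over the knockout step was 3757 and fell to 2150 when only the 4 arrays compared entered the fit, and to between 1998 and 2387 when 1 array was left out. The controls' count of 4966 became 2829 with only their own arrays and 3156 to 4113 with 1 array left out. The count of differences between the steps, 2723, ranged from 1724 to 2430 with 1 array left out. With the replicate number as a block (replicate block), the counts were 3613 for the knockout step, 4808 for the controls, 2543 for the difference and 5821 for day 6, and 3 of 170 named genes lost their knockout call. These samples share only a number. Fits over fewer arrays have fewer residual degrees of freedom. Of the 170 named genes 137 were called, 35 of these lost the call without some array and 91 kept it under every alternative. With all probe sets of a gene averaged, 22 named genes lost the call and Pfkp (0.04) and Atp6v1h (0.02) changed sign; the cause was not tested. Leaving out the dimmest 40% of genes removed some named genes; of those that remained 153 kept their side of the threshold and 4 became called. The main limits are 2 arrays a group, signals of 18S RNA that moved with day 3, and the scaling, on which the balance of rises and falls depends.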

Other observations

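Zinc finger genes, a family looked at after the values were seen, had more falls than rises in both lines, as had all genes. Of 388 genes named Zfp, Znf, Zscan, Zkscan or Zbtb with a number, 74 fell (19.1%) and 14 rose over the knockout step, where 13.7% of all genes fell. In controls 82 fell (21.1%) and 28 rose (7.22%), where 18.2% and 9.12% of all genes did. The step was more positive in knockout cells for 29 of them and more negative for 29, and 5 fell at least 2-fold in knockout cells.

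Interferon-stimulated genes, which respond to antiviral signalling, moved in both directions in knockout cells. Of 23 measured, 5 rose and 3 fell, against 1 and 4 in controls. Over all genes 6.97% rose and 13.7% fell in knockout cells, and 9.12% and 18.2% in controls. The falls of this list were thus near the shares of all genes in both lines. With median centring 7 of the 23 rose and 3 fell in knockout cells. The step was more positive in knockout cells for 6 and more negative for 2. Ifit2 fell from 65.4 and 68.4 to 31.4 and 38.3, where controls read 100.4 to 126 on these days, and Bst2 fell from 880.1 and 899 to 600.2 and 549.6. Oas1a, an RNA sensor, rose from 369 and 369 to 642 and 608 while controls fell by 0.20 on the log2 scale. Gabarapl1, an autophagy gene whose probe set can detect related transcripts, fell from 459 and 487 to 292 and 307, and Atp6v1h, a subunit of the proton pump of lysosomes, changed by -0.36, but by 0.02 when its probe sets were averaged.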
